A study of Mus musculus with 8 samples.

Results

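The genes described here are 42 mouse genes of TGF-beta and bone morphogenetic protein (BMP) signalling, out of 27164 genes in the count tables. They were named as a list of symbols, chosen with earlier results of these data known. Each symbol was matched to its Entrez identifier through RefSeq, and this matching uses no measured value. The list holds 12 ligand genes, 10 receptor genes, 8 Smad genes, 4 Id genes, 4 genes of secreted antagonists and 4 genes of latent TGF-beta binding proteins. All 42 had a row in the tables, and all 42 passed the filter on low counts.

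TGF-beta and BMP ligands are secreted dimers that bring together type I and type II receptor kinases on the cell surface, and the activated type I receptor phosphorylates a receptor Smad that enters the nucleus with Smad4. TGF-betas and activins mainly use Smad2 and Smad3, and BMPs mainly use Smad1, Smad5 and Smad9. TGF-beta is stored in the matrix in a latent complex, secreted antagonists capture BMPs and activins, and TGF-beta signalling is known in the mammary gland as a brake on ductal growth.

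The libraries came from untreated 10-week-old C57BL/6 females, all of which carried the Lgr5-GFP-IRES-CreERT2 allele, which places green fluorescent protein and an inducible Cre under the control of Lgr5. Basal cells, the outer and contractile layer of the mammary ducts, were sorted by flow cytometry for Lgr5, an R-spondin receptor, and for Tspan8 (T8), a tetraspanin membrane protein. Both gates together gave 4 populations, named Lgr5+T8hi and Lgr5-T8hi for cells high in Tspan8, and Lgr5+T8- and Lgr5-T8- for cells negative for it. A population had 2 libraries, replicate 1 in batch 1 and replicate 2 in batch 2. No label tells whether the replicates are separate mice or pools, so every p-value here stands on the spread among the libraries alone, and that spread may be technical.

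Total gene counts ran between 24571300 and 38384875 per library. The sort genes followed their labels: Tspan8 averaged 275 and 159 CPM (counts per 1000000) in Lgr5+T8hi and Lgr5-T8hi libraries, against 8.70 CPM in Lgr5+T8- and 3.76 CPM in Lgr5-T8- libraries. Lgr5 averaged 184 CPM in Lgr5+T8hi and 199 CPM in Lgr5+T8- libraries, against 124 CPM in Lgr5-T8hi and 54.4 CPM in Lgr5-T8- libraries. The Lgr5 gate thus separated Lgr5 RNA less in T8hi than in T8- cells. The summed level of 7 basal markers was 14773 to 22292 CPM over the 8 libraries, and that of 10 luminal markers was 1084 to 2316 CPM. Fibroblast markers moved with the T8 gate, and other stromal and immune markers did so mainly within Lgr5+ cells. The summed level of 7 fibroblast markers was 778 to 1001 CPM in Lgr5+T8hi, 474 to 608 CPM in Lgr5-T8hi, 218 to 222 CPM in Lgr5+T8- and 263 to 309 CPM in Lgr5-T8- libraries, and 7 of the 7 genes were higher in T8hi cells. The summed level of 7 endothelial markers was 389 to 456 CPM in Lgr5+T8hi, 111 to 241 CPM in Lgr5-T8hi, 79.6 to 112 CPM in Lgr5+T8- and 135 to 149.9 CPM in Lgr5-T8- libraries, with 3 of 7 genes higher in T8hi cells. The summed level of 6 pericyte markers was 143 to 166 CPM in Lgr5+T8hi, 125 to 144 CPM in Lgr5-T8hi, 60.7 to 68.7 CPM in Lgr5+T8- and 109 to 122 CPM in Lgr5-T8- libraries, with 5 of 6 genes higher in T8hi cells. Within Lgr5+ cells, edgeR called 7 of 7 fibroblast, 6 of 7 endothelial, 5 of 6 pericyte and 5 of 7 immune markers higher in T8hi cells, while within Lgr5- cells it called 6 of 7 fibroblast markers and 0 of the endothelial, pericyte and immune ones (0, 2 and 1 at an unadjusted p under 0.05). The summed level of 7 immune markers was 33.5 to 45.5 CPM in Lgr5+T8hi, 24.0 to 24.8 CPM in Lgr5-T8hi, 17.0 to 19.4 CPM in Lgr5+T8- and 20.6 to 25.7 CPM in Lgr5-T8- libraries. That of 4 adipocyte markers was 210.3 to 309.9 CPM in Lgr5+T8hi, 84.6 to 113.5 CPM in Lgr5-T8hi, 40.4 to 67.5 CPM in Lgr5+T8- and 58.4 to 66.7 CPM in Lgr5-T8- libraries, nearly all of it Fabp4, with Adipoq at 0 in 1 library and Cidec at 0 in 3. The summed level of 4 Schwann markers was 215 to 245 CPM in Lgr5+T8hi and 195 to 208 CPM in Lgr5-T8hi libraries. It was 162 to 191 CPM in Lgr5+T8- and 171 to 183 CPM in Lgr5-T8- libraries, with 1 of 4 genes higher in T8hi cells. No fibroblast, endothelial, pericyte or immune marker was at 0 in any library. The basal markers were 14773 to 17757 CPM in T8hi and 19295 to 22292 CPM in T8- libraries, and 3 of 7 were lower in T8hi cells. In sorted bulk samples, fewer cells of a type and less RNA per cell cannot be told apart.

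**Figure D1:**
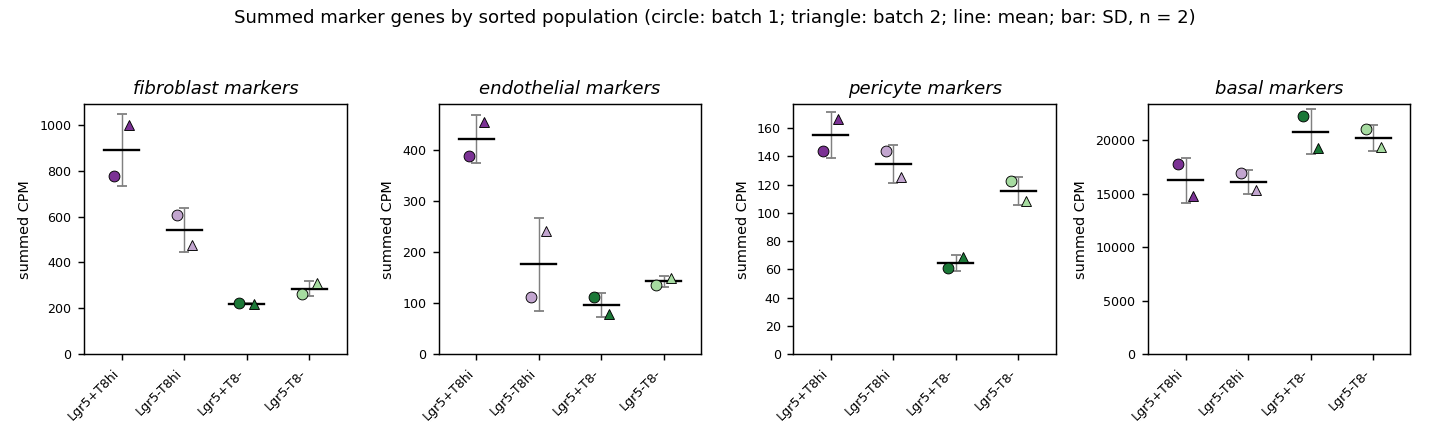
Summed levels of marker genes (CPM, linear axes from 0) in each of the 4 sorted populations; circles are batch 1, triangles are batch 2, lines are means and bars are SD (n = 2). The fibroblast sums were 474 to 1001 CPM in the 4 T8hi libraries and 218 to 309 CPM in the 4 T8- libraries, without overlap, while the basal sums were lower in T8hi libraries.

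The levels of the 42 genes spanned a wide range. On average over the 8 libraries, 4 members were below 1 CPM, 9 were at 1 to 10 CPM, 15 at 10 to 100 CPM and 14 at 100 CPM or above. Per gene length, the ligands Tgfb3 and Bmp7 had mean levels of 40.8 and 40.1 CPM per kilobase, Tgfb1 had 19.8 and Tgfb2 had 5.98, and the other 8 ligands were between 0.168 (Bmp3) and 3.36 CPM per kilobase (Inhbb). Among the receptors the level per length was highest for Tgfbr3, the co-receptor betaglycan, at 89.0 CPM per kilobase and for the type I receptor Tgfbr1 at 53.0 CPM per kilobase. Of the BMP type I receptors, Acvr1 stood at 33.3, Bmpr1a at 28.1 and Bmpr1b at 0.0572 CPM per kilobase. Of the Smads, the inhibitory Smad7 had a level of 71.5 and the BMP-responsive Smad1 a level of 42.2 CPM per kilobase, while Smad9 was at 0.456 CPM per kilobase. Follistatin (Fst), which captures activins, reached 255 CPM per kilobase, while the BMP antagonists Nog, Chrd and Grem1 stood at 1.41, 0.806 and 0.118 CPM per kilobase.

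**Figure D2:**
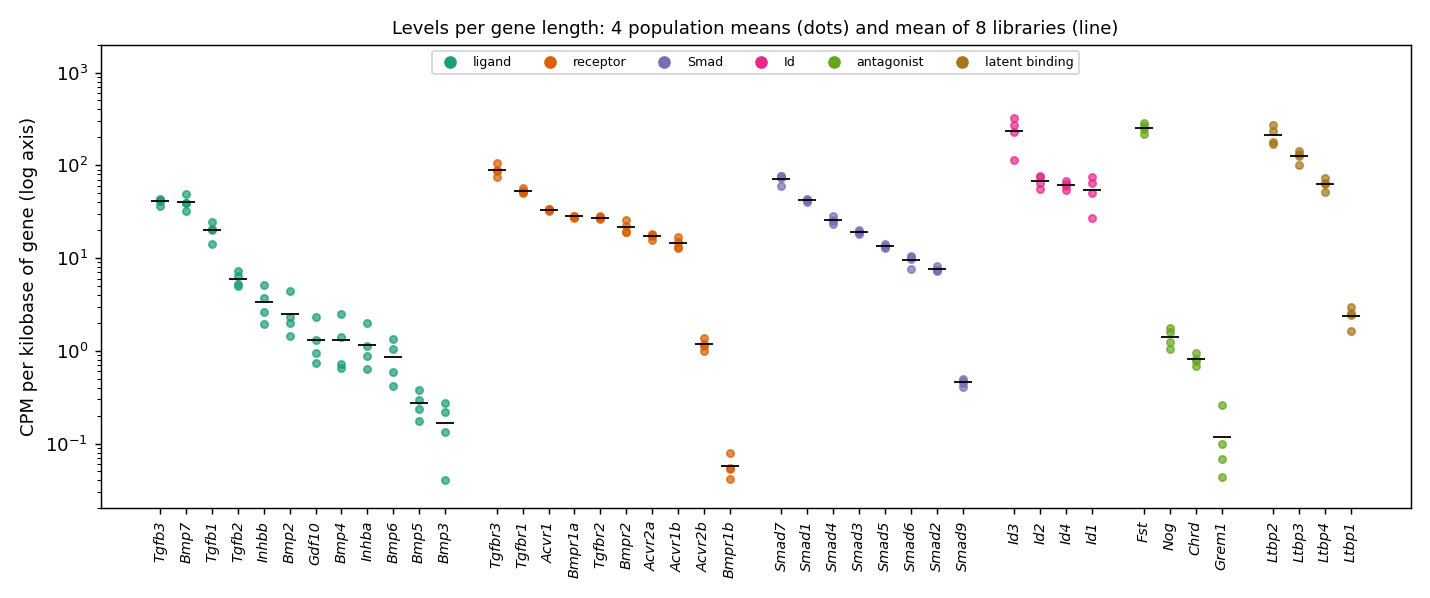
Level of each of the 42 genes per kilobase of gene (CPM per kilobase, log axis), by role; dots are the 4 population means and lines the mean of 8 libraries. Fst, Id3, Ltbp2 and Ltbp3 lay above 100 CPM per kilobase on average, and Bmpr1b lay lowest at 0.0572 CPM per kilobase.

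The first comparison was between T8hi and T8- cells, averaged over Lgr5+ and Lgr5- cells and fitted with batch as a term. Of the 42 genes, 10 were higher and 3 were lower in T8hi cells at an adjusted p under 0.05 by edgeR's quasi-likelihood test. Among all 16526 genes tested, 9.13% were higher, 5.52% were lower and 14.6% were called in either direction. The calls lay mainly among the ligands, where 6 of 12 genes rose and 2 fell, with 2 of 4 Id genes and 2 of 4 latent binding protein genes higher and 1 of 10 receptor genes lower. The median log2 fold change was 0.04 over the 42 genes and -0.02 over all genes tested.

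The comparison between Lgr5+ and Lgr5- cells, averaged over both T8 gates, called 7 of the 42 genes higher and 3 lower in Lgr5+ cells, where 4.23% of all genes tested were higher, 4.86% were lower and 9.09% were called in either direction. The higher genes were Tgfb1, Bmp2, Id1, Id3, Ltbp2, Ltbp3 and Ltbp4, and the lower ones were Bmp7, Tgfbr3 and Acvr1b. The median log2 fold change was 0.03 over the 42 genes and 0.01 over all genes. The Tspan8 and Lgr5 comparisons use the same 8 libraries, so their results are not independent. Without the batch term, the Tspan8 comparison called 4 genes higher and 0 lower, and the Lgr5 comparison called 0 and 0. The shares of all genes called without that term are not given here, so these counts are not set against a background.

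**Figure D3:**
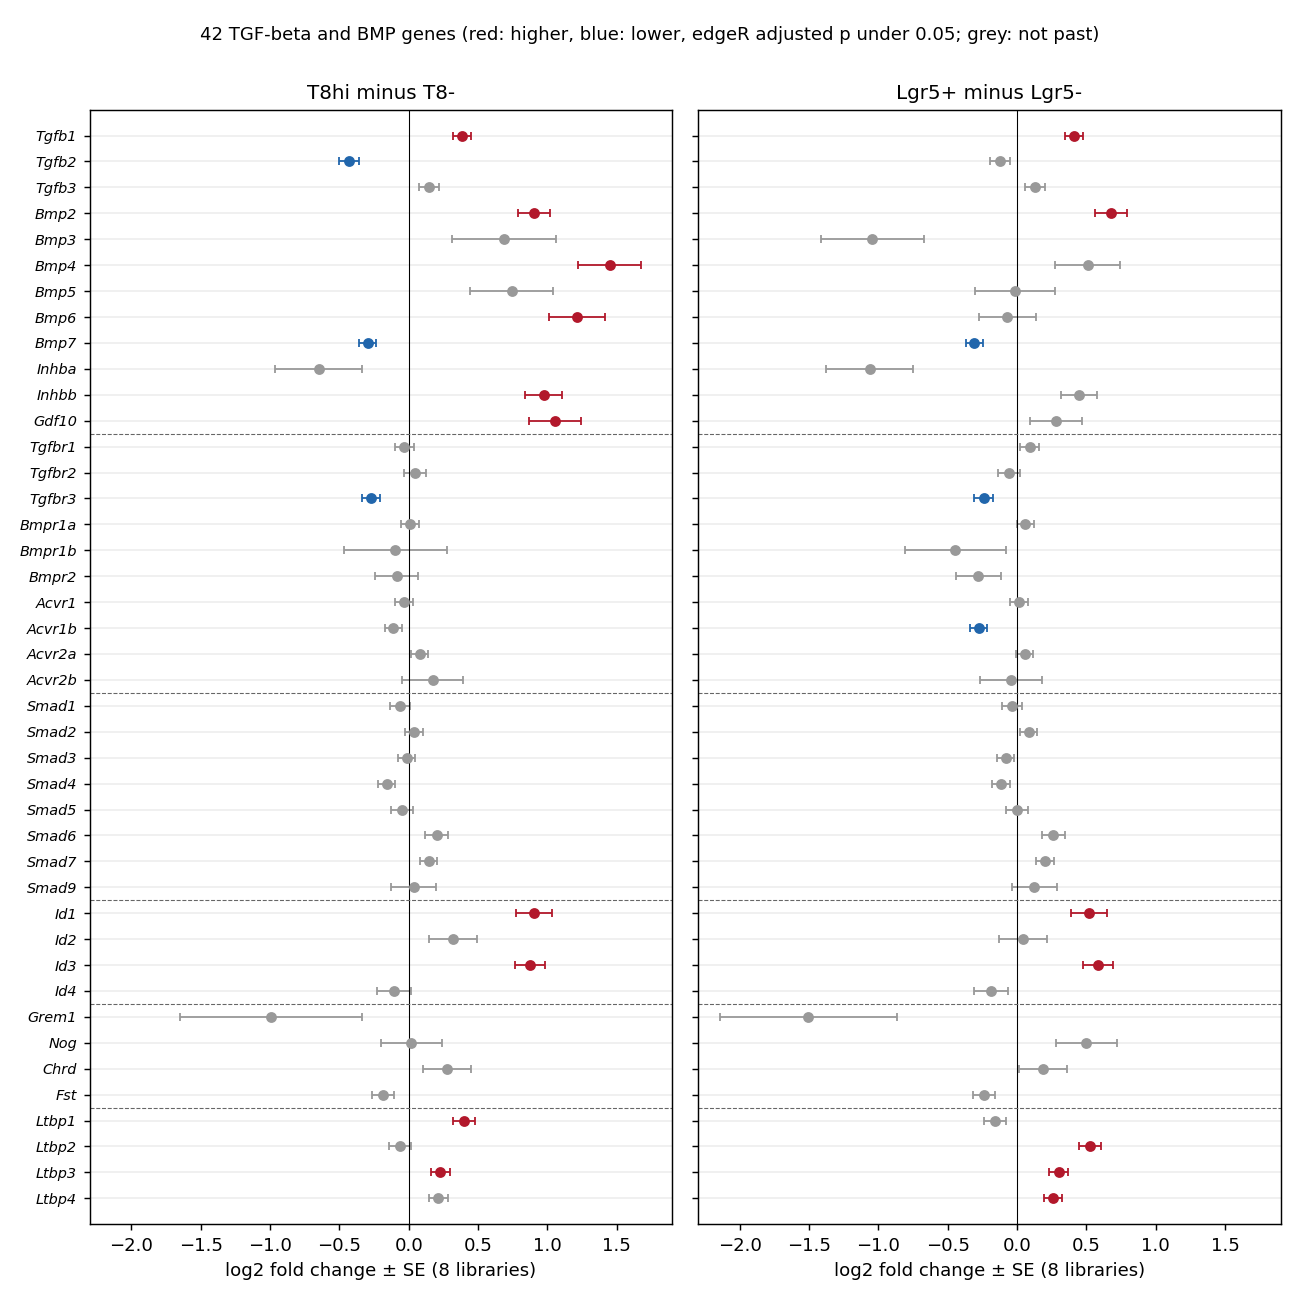
Log2 fold change with its standard error (horizontal axis) of the 42 genes in T8hi minus T8- cells (left) and Lgr5+ minus Lgr5- cells (right), from edgeR's fit to 8 libraries; red marks higher, blue marks lower at an adjusted p under 0.05, and grey marks genes not past it. On the left, 10 genes were higher and 3 lower, led by Bmp4 at 1.45; on the right, 7 were higher and 3 lower.

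Among the BMP ligands, Bmp2, Bmp4 and Bmp6 were higher in T8hi cells, as were Inhbb, which encodes the beta B subunit of activin B, and Gdf10, also called Bmp3b. Below, values of a population are those of batch 1 and then batch 2. Bmp4 (Entrez 12159, chromosome 14, 46383525 to 46390669 in GRCm38) had 5.59 and 4.43 CPM in Lgr5+T8hi and 2.33 and 3.25 CPM in Lgr5-T8hi libraries, against 1.92 and 0.957 CPM in Lgr5+T8- and 1.12 and 1.47 CPM in Lgr5-T8- libraries. The 4 T8hi libraries lay above the 4 T8- libraries without overlap. The difference was 1.45 ± 0.23 (log2 ± SE; edgeR adjusted p = 0.00146). Bmp6 (Entrez 12161, chromosome 13, 38345716 to 38500314) had 2.34 and 4.16 CPM in Lgr5+T8hi and 2.01 and 3.01 CPM in Lgr5-T8hi libraries, against 1.04 and 0.957 CPM in Lgr5+T8- and 1.39 and 1.43 CPM in Lgr5-T8- libraries. Its sides did not overlap either, and the log2 difference was 1.21 ± 0.20 (edgeR adjusted p = 0.00156). Bmp6 overlaps the gene Txndc5, and reads of overlapping genes may be split in counting, so its values are uncertain to that extent.

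Inhbb (Entrez 16324, chromosome 1, 119415463 to 119422248) had 22.4 and 21.5 CPM in Lgr5+T8hi and 15.8 and 15.8 CPM in Lgr5-T8hi libraries, against 14.4 and 7.93 CPM in Lgr5+T8- and 8.82 and 7.61 CPM in Lgr5-T8- libraries. All T8hi libraries were again above all T8- libraries. The log2 difference was 0.97 ± 0.13 (edgeR adjusted p = 0.000819). Gdf10 (Entrez 14560, chromosome 14, 33923587 to 33936514) had 5.83 and 5.79 CPM in Lgr5+T8hi and 3.02 and 3.46 CPM in Lgr5-T8hi libraries, against 1.95 and 1.79 CPM in Lgr5+T8- and 1.58 and 3.16 CPM in Lgr5-T8- libraries. The sides overlapped through the batch 2 library of Lgr5-T8-, and within batches the difference was 1.06 and 0.78 on the log2(CPM + 0.5) scale. The fitted log2 difference was 1.05 ± 0.18 (edgeR adjusted p = 0.00218). Bmp4, Bmp6, Inhbb and Gdf10 were the 4 genes still called without the batch term, at adjusted p of 0.0235, 0.0340, 0.0287 and 0.0460 by edgeR. The fibroblast, endothelial, immune, Schwann and adipocyte marker sums given above were also highest in Lgr5+T8hi libraries, the pericyte sums were above those of T8- libraries in both T8hi populations, and the part of these markers in the differences was not tested.

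Bmp2 (Entrez 12156, chromosome 2, 133552159 to 133562896) was called in both comparisons. It had 13.8 and 8.17 CPM in Lgr5+T8hi, 7.06 and 4.53 CPM in Lgr5-T8hi, 6.33 and 3.63 CPM in Lgr5+T8- and 4.18 and 3.05 CPM in Lgr5-T8- libraries. Lgr5+T8hi libraries were the highest of their batch and Lgr5-T8- libraries the lowest of theirs, with batch 2 below batch 1 in each population. Bmp2 was 0.90 ± 0.11 higher on the log2 scale in T8hi than in T8- cells (edgeR adjusted p = 0.000242). In Lgr5+ against Lgr5- cells it was 0.68 ± 0.12 higher (edgeR adjusted p = 0.0029).

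The TGF-beta ligands moved less and in different directions. Tgfb1 (Entrez 21803, chromosome 7, 25687002 to 25705077) had 57.3 and 46.3 CPM in Lgr5+T8hi, 45.3 and 38.1 CPM in Lgr5-T8hi, 48.8 and 36.6 CPM in Lgr5+T8- and 34.0 and 26.0 CPM in Lgr5-T8- libraries. Sides overlapped across batches, yet within each batch Lgr5+T8hi was highest and Lgr5-T8- lowest. The log2 difference was 0.38 ± 0.06 for T8hi against T8- cells (edgeR adjusted p = 0.00158) and 0.41 ± 0.06 for Lgr5+ against Lgr5- cells (edgeR adjusted p = 0.00163). Tgfb2 (Entrez 21808, chromosome 1, 186622787 to 186709697) went the other way, with 27.8 and 19.4 CPM in Lgr5+T8hi and 30.4 and 18.9 CPM in Lgr5-T8hi libraries, against 34.6 and 25.7 CPM in Lgr5+T8- and 41.6 and 27.7 CPM in Lgr5-T8- libraries. Both T8- libraries of a batch were above both T8hi libraries of that batch. Tgfb2 fell by 0.43 ± 0.07 on the log2 scale in T8hi cells (edgeR adjusted p = 0.00147). Tgfb3, the ligand with the highest level per length, lay between 109 and 157 CPM in all libraries and was called in neither comparison.

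Bmp7 (Entrez 12162, chromosome 2, 172868012 to 172940321), the BMP ligand with the highest level per length, was lower in T8hi and in Lgr5+ cells. Its values were 49.1 and 77.2 CPM in Lgr5+T8hi, 58.7 and 97.4 CPM in Lgr5-T8hi, 55.8 and 100.4 CPM in Lgr5+T8- and 73.0 and 119.5 CPM in Lgr5-T8- libraries. Batch 2 was above batch 1 in each population, and within each batch Lgr5+T8hi was lowest and Lgr5-T8- highest. It fell by 0.29 ± 0.06 on the log2 scale in T8hi cells (edgeR adjusted p = 0.00721) and by 0.31 ± 0.06 in Lgr5+ cells (edgeR adjusted p = 0.00883). Both calls were lost without Lgr5+T8hi replicate 2 (edgeR adjusted p = 0.0590 and 0.0649), without Lgr5-T8hi replicate 1 (0.0793 and 0.0598) and without Lgr5-T8hi replicate 2 (0.0527 and 0.0555). The remaining ligands were scarce: Bmp3, Bmp5 and Inhba, the activin beta A subunit, ranged between 0.0945 and 3.88 CPM and were called in neither comparison. For Inhba the log2 difference of Lgr5+ against Lgr5- cells was -1.06 ± 0.31 (edgeR adjusted p = 0.071).

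**Figure D4:**
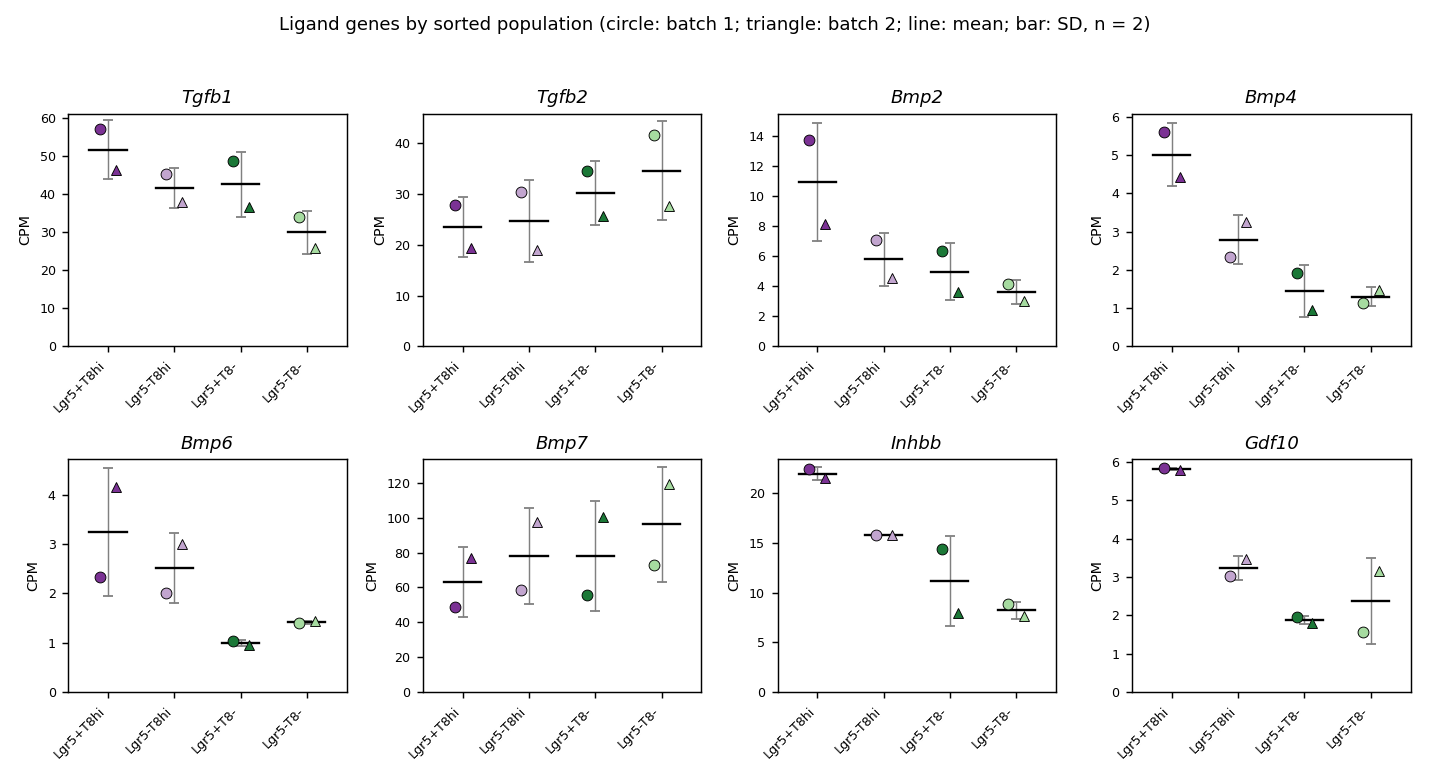
Levels of the 8 ligand genes called in the Tspan8 comparison (CPM, linear axes from 0) by sorted population; circles are batch 1, triangles are batch 2, lines are means and bars are SD (n = 2). Bmp4, Bmp6 and Inhbb were higher in all 4 T8hi libraries than in any T8- library, while Tgfb2 was lower in T8hi libraries within each batch, and Bmp7 was so within each batch and Lgr5 gate.

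Of the 10 receptor genes, 0 were higher in either comparison by edgeR, DESeq2 or limma-voom, and 0 by any of them at an unadjusted p under 0.05. Of all genes tested, edgeR called 9.13% higher in T8hi and 4.23% higher in Lgr5+ cells. With only 10 genes, 0 calls is not far from those shares. Tgfbr3 (Entrez 21814, chromosome 5, 107106567 to 107289629), which presents TGF-beta2 to the signalling receptors, had 456 and 446 CPM in Lgr5+T8hi, 526 and 522 CPM in Lgr5-T8hi, 521 and 549 CPM in Lgr5+T8- and 611 and 676 CPM in Lgr5-T8- libraries. Lgr5+T8hi libraries were the lowest and Lgr5-T8- libraries the highest, in both batches. It fell by 0.27 ± 0.07 on the log2 scale in T8hi cells (edgeR adjusted p = 0.0178) and by 0.24 ± 0.07 in Lgr5+ cells (edgeR adjusted p = 0.0451). Leaving out any 1 of the libraries of Lgr5+T8hi, Lgr5-T8hi or Lgr5+T8- ended both calls, at adjusted p of 0.0567 to 0.160 and 0.0893 to 0.275.

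Acvr1b (Entrez 11479, chromosome 15, 101174072 to 101213684) encodes the activin type I receptor ALK4. It had 43.0 and 41.0 CPM in Lgr5+T8hi and 43.2 and 44.0 CPM in Lgr5+T8- libraries, against 51.7 and 46.3 CPM in Lgr5-T8hi and 58.0 and 51.8 CPM in Lgr5-T8- libraries. The 4 Lgr5+ libraries lay below the 4 Lgr5- libraries. It fell by 0.28 ± 0.06 on the log2 scale in Lgr5+ cells (edgeR adjusted p = 0.0178), a call that was lost without either Lgr5+T8hi library, either Lgr5-T8hi library or Lgr5+T8- replicate 1 (0.0647 to 0.136). The other 8 receptors were called in neither comparison. Tgfbr1 lay between 218 and 379 CPM with batch 2 lower than batch 1, Tgfbr2 between 113 and 139 CPM, Bmpr1a between 142 and 159 CPM and Acvr1 between 98.7 and 121 CPM. Bmpr2 and Acvr2a, which encode type II receptors, lay between 59.7 and 114 CPM and between 86.6 and 104 CPM. Acvr2b stood at 1.27 to 2.55 CPM and Bmpr1b at 0.159 to 0.515 CPM.

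The Smad genes did not pass the threshold in either comparison. edgeR called 0 of 8 in the Tspan8 comparison, and 0 of 8 in the Lgr5 comparison, where 14.6% and 9.09% of all genes tested were called. With only 8 genes, 0 calls is not far from those shares. Before adjustment, at p under 0.05, 2 were higher and 1 was lower in T8hi cells, and 2 were higher in Lgr5+ cells. DESeq2 called 0 and 1 of them, the 1 being higher in Lgr5+ cells, and limma-voom called 0 and 0. The log2 differences were -0.16 to 0.20 for T8hi against T8- cells and -0.12 to 0.26 for Lgr5+ against Lgr5- cells, with standard errors of 0.06 to 0.16. Smad1, Smad3 and Smad5 lay between 87.4 and 146 CPM in all libraries, and Smad2 and Smad4 between 62.1 and 94.7 CPM. The inhibitory Smad7, itself induced by TGF-beta and BMP signalling, had 445 and 234 CPM in Lgr5+T8hi, 422 and 227 CPM in Lgr5-T8hi, 445 and 233 CPM in Lgr5+T8- and 349.5 and 184 CPM in Lgr5-T8- libraries. Batch 2 was far below batch 1 in every population, and Lgr5-T8- was lowest in each batch. The log2 difference of Smad7 between Lgr5+ and Lgr5- cells was 0.20 ± 0.06 (edgeR adjusted p = 0.0749). Within T8- cells alone, edgeR and DESeq2 each called 1 of 8 Smad genes higher in Lgr5+ cells, and limma-voom called 2. The edgeR call was Smad7, and it was lost in most fits that left out 1 library. Without the batch term, that Smad7 difference was 0.34 ± 0.47 (log2, edgeR adjusted p = 0.904). Smad6, the inhibitor of BMP Smads, had 34.7 and 28.1 CPM in Lgr5+T8hi, 32.7 and 25.4 CPM in Lgr5-T8hi, 35.7 and 25.1 CPM in Lgr5+T8- and 22.7 and 22.6 CPM in Lgr5-T8- libraries, which were the lowest of each batch.

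The Id genes encode inhibitors of basic helix-loop-helix transcription factors and are common targets of the BMP Smads. Id1 and Id3 were higher in T8hi and in Lgr5+ cells, and Id2 and Id4 were called in neither comparison. The 250 bases before the RefSeq start (GRCm38.p6) are shown for Id3, chr4:136143572-136143821 on the plus strand, for Id2, chr12:25096093-25096342 on the minus strand, and for Id4, chr13:48260866-48261115 on the plus strand, to set the called Id3 beside both uncalled genes. Capitals mark CAGAC, the Smad box, and GGCGCC and GGAGCC, both known as BMP-Smad motifs, on either strand, so that GTCTG and GGCTCC count as CAGAC and GGAGCC.
Id3: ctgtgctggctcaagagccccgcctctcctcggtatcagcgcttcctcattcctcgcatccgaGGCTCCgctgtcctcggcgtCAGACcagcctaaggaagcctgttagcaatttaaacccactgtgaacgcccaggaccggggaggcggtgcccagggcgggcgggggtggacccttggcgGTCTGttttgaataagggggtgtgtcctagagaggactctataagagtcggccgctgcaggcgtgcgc
Id2: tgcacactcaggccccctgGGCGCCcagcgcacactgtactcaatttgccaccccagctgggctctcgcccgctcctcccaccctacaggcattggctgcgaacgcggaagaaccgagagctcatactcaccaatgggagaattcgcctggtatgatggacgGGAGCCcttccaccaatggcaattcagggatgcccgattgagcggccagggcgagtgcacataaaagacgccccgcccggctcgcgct
Id4: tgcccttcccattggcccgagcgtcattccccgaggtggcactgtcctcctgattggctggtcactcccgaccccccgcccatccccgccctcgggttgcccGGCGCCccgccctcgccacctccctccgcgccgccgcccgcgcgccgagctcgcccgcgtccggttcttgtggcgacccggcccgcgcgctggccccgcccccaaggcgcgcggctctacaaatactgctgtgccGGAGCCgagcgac

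These letters are a description of the windows, and Id1, the other called Id gene, had no window to show. CAGAC or its reverse stands at 2 places in the Id3 window and in neither of the others, GGCGCC stands once in the Id2 and Id4 windows, and GGAGCC once in each of the 3 windows. Of 32851 RefSeq windows of the same length, 42.2% hold CAGAC, 9.59% hold GGCGCC and 26.0% hold GGAGCC. Of the 42 genes, 31 matched the promoter table with 39 windows in all, of which 17 held CAGAC, 11 held GGCGCC and 19 held GGAGCC.

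Id3 (Entrez 15903, chromosome 4, 136143822 to 136145392) had 387 and 231 CPM in Lgr5+T8hi, 335 and 186 CPM in Lgr5-T8hi, 293 and 139 CPM in Lgr5+T8- and 120.1 and 96.9 CPM in Lgr5-T8- libraries. In both batches Lgr5+T8hi was highest, followed by Lgr5-T8hi and Lgr5+T8-, with Lgr5-T8- lowest. Id3 was 0.88 ± 0.11 higher on the log2 scale in T8hi cells (edgeR adjusted p = 0.000608) and 0.58 ± 0.11 higher in Lgr5+ cells (edgeR adjusted p = 0.00924). The Lgr5 call was lost without Lgr5+T8hi replicate 1 (0.0739) or replicate 2 (0.0598). Id1 (Entrez 15901, chromosome 2, 152736251 to 152737410) had 85.5 and 52.0 CPM in Lgr5+T8hi, 73.6 and 44.0 CPM in Lgr5-T8hi, 63.7 and 28.7 CPM in Lgr5+T8- and 26.8 and 23.0 CPM in Lgr5-T8- libraries. The order of the populations was that of Id3 in both batches. Id1 was 0.90 ± 0.13 higher in T8hi cells (log2, edgeR adjusted p = 0.00267) and 0.52 ± 0.13 higher in Lgr5+ cells (edgeR adjusted p = 0.0472). The Lgr5 call of Id1 was lost without either Lgr5+T8hi library, either Lgr5-T8hi library, Lgr5+T8- replicate 1 or Lgr5-T8- replicate 1 (0.0503 to 0.197), and with no count filter (0.0829).

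Id1 and Id3 were also lower in batch 2, by 0.71 ± 0.13 and 0.75 ± 0.11 on the log2 scale. Within batch 1 the T8hi minus T8- difference of Id3 was 0.94 and within batch 2 it was 0.83 on the log2(CPM + 0.5) scale. The Lgr5+ minus Lgr5- difference of Id3 was 0.75 within batch 1 and 0.42 within batch 2, and that of Id1 was 0.73 and 0.28. The summed luminal markers were 1712 to 2316 CPM in Lgr5+T8hi, 1493 to 2106 CPM in Lgr5-T8hi, 1357 to 2067 CPM in Lgr5+T8- and 1084 to 1425 CPM in Lgr5-T8- libraries. Of the 10 luminal markers 6 were higher in T8hi cells and none was lower by edgeR, and their part in the Id differences was not tested. Id2 lay between 56.1 and 111 CPM and differed by 0.32 ± 0.17 between T8hi and T8- cells (edgeR adjusted p = 0.31), and Id4 lay between 83.5 and 139.8 CPM and differed by -0.11 ± 0.12 (edgeR adjusted p = 0.634).

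The antagonists were called in neither comparison. edgeR called 0 of 4 in both, where 14.6% and 9.09% of all genes tested were called. With only 4 genes, 0 calls is not far from those shares. At an unadjusted p under 0.05, edgeR had 1 lower in the Tspan8 comparison and 1 higher and 2 lower in the Lgr5 comparison. DESeq2 called 0 and 1 of them, the 1 being lower in Lgr5+ cells, and limma-voom called 0 and 0. Fst had 645 and 382 CPM in Lgr5+T8hi, 749 and 477 CPM in Lgr5-T8hi, 658 and 504 CPM in Lgr5+T8- and 782 and 569.9 CPM in Lgr5-T8- libraries, lowest in Lgr5+T8hi and highest in Lgr5-T8- in both batches. Its log2 difference of Lgr5+ against Lgr5- cells was -0.24 ± 0.08 (edgeR adjusted p = 0.0829). Nog, at 1.48 to 4.64 CPM, and Chrd, at 1.65 to 3.29 CPM, were scarce, and Grem1 had 50 counts over the 8 libraries with 0 counts in the batch 2 libraries of Lgr5+T8hi and Lgr5+T8-.

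The latent TGF-beta binding proteins are matrix proteins, most of which tether latent TGF-beta, while Ltbp2 is known not to bind it. Ltbp2 (Entrez 16997, chromosome 12, 84783212 to 84876558) had 1391 and 1711 CPM in Lgr5+T8hi and 1718 and 1835 CPM in Lgr5+T8- libraries, against 1075 and 1294 CPM in Lgr5-T8hi and 1146 and 1091 CPM in Lgr5-T8- libraries. The 4 Lgr5+ libraries lay above the 4 Lgr5- libraries. The log2 difference of Lgr5+ against Lgr5- cells was 0.53 ± 0.08 (edgeR adjusted p = 0.00119), while that of T8hi against T8- cells was -0.06 ± 0.08 (edgeR adjusted p = 0.66). Ltbp3 (Entrez 16998, chromosome 19, 5740900 to 5758536) had 729 and 765 CPM in Lgr5+T8hi and 704 and 672 CPM in Lgr5+T8- libraries, against 639 and 669 CPM in Lgr5-T8hi and 546 and 490.1 CPM in Lgr5-T8- libraries. The lowest Lgr5+ library, at 672 CPM, lay just above the highest Lgr5- library, at 669 CPM. Ltbp3 was 0.30 ± 0.07 higher in Lgr5+ cells (log2, edgeR adjusted p = 0.0189) and 0.23 ± 0.07 higher in T8hi cells (edgeR adjusted p = 0.0488).

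The Lgr5 call of Ltbp3 was lost without either Lgr5+T8hi library, either Lgr5-T8hi library or Lgr5+T8- replicate 1 (edgeR adjusted p = 0.0634 to 0.211), and its Tspan8 call without any 1 library other than Lgr5-T8- replicate 1 (0.0566 to 0.305). Ltbp4 (Entrez 108075, chromosome 7, 27305140 to 27339720) had 376 and 433 CPM in Lgr5+T8hi and 334 and 382 CPM in Lgr5+T8- libraries, against 309.6 and 385 CPM in Lgr5-T8hi and 278 and 302 CPM in Lgr5-T8- libraries. In each batch and T8 gate the Lgr5+ library was above the Lgr5- library, while the sides overlapped across gates and batches. The log2 difference was 0.26 ± 0.07 (edgeR adjusted p = 0.029), and the call was lost without any 1 library of Lgr5+T8hi, Lgr5-T8hi or Lgr5+T8- (0.0625 to 0.301).

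Ltbp1 (Entrez 268977, chromosome 17, 75005480 to 75392512) was called higher in T8hi cells, and this difference itself differed between Lgr5+ and Lgr5- cells. It had 24.0 and 24.8 CPM in Lgr5+T8hi and 20.8 and 18.6 CPM in Lgr5-T8hi libraries, against 13.0 and 13.7 CPM in Lgr5+T8- and 21.8 and 19.6 CPM in Lgr5-T8- libraries. Lgr5+T8- libraries were the lowest in both batches and Lgr5+T8hi libraries the highest. In Lgr5+ cells, Ltbp1 was 0.87 ± 0.11 higher on the log2 scale in T8hi than in T8- cells (edgeR adjusted p = 0.000446). In Lgr5- cells the same difference was -0.07 ± 0.11 (edgeR adjusted p = 0.794). The interaction, the T8 difference in Lgr5+ cells minus that in Lgr5- cells, was 0.94 ± 0.16 (edgeR adjusted p = 0.00962), with 0.93 within batch 1 and 0.91 within batch 2 on the log2(CPM + 0.5) scale. Without Lgr5+T8hi replicate 2 it was 0.87 at an adjusted p of 0.0788. Averaged over Lgr5, Ltbp1 was 0.40 ± 0.08 higher in T8hi cells (edgeR adjusted p = 0.00467). The pericyte marker sums were likewise lowest in Lgr5+T8- libraries, and their part in the Ltbp1 difference was not tested.

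The RefSeq promoter windows used here hold 2 starts for Ltbp1, and counts per gene pool both. The gene itself begins at 75005480 in RefSeq, inside the window of start 1. The 250 bases before each start are shown: chr17:75005279-75005528 (start 1) and chr17:75178531-75178780 (start 2), both on the plus strand, with capitals as above.
Ltbp1 start 1: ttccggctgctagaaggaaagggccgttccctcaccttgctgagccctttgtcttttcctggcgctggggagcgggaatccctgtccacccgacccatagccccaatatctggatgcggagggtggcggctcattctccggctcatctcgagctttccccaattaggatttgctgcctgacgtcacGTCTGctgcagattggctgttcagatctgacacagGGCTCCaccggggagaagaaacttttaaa
Ltbp1 start 2: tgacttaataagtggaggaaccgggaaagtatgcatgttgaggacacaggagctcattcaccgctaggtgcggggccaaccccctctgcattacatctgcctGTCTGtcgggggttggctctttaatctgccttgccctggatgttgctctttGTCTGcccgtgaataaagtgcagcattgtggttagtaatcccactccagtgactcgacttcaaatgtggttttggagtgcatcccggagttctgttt
The window of start 1 holds CAGAC and GGAGCC once each in reverse, and that of start 2 holds CAGAC at 2 places in reverse. How the counts divide between the starts was not analysed here.

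**Figure D5:**
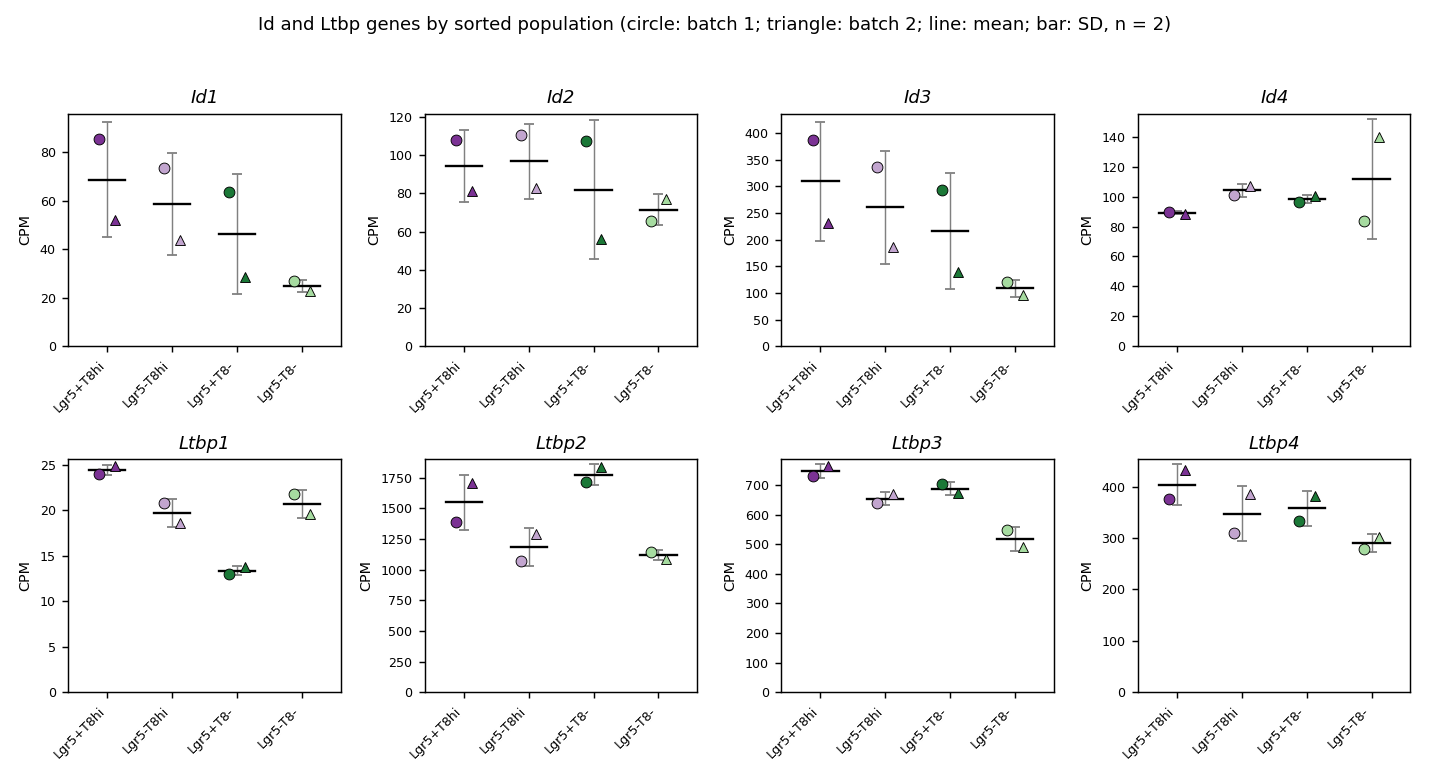
Levels of the 4 Id and 4 Ltbp genes (CPM, linear axes from 0) by sorted population; circles are batch 1, triangles are batch 2, lines are means and bars are SD (n = 2). Id1 and Id3 were lowest in Lgr5-T8- libraries of each batch, Ltbp1 was lowest in Lgr5+T8- libraries at 13.0 and 13.7 CPM, and Ltbp2 was higher in all 4 Lgr5+ libraries than in any Lgr5- library.

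Over the 42 genes, the interaction called 2 higher and 0 lower by edgeR, against 2.18% higher, 0.363% lower and 2.55% in either direction of all genes tested. At an unadjusted p under 0.05, edgeR had 1 Smad gene and 1 Id gene lower, and DESeq2 and limma-voom also called 0 members lower. The second gene was Bmp3, a scarce ligand known to oppose other BMPs, with 21 and 20 counts in Lgr5+T8hi and 15 and 16 counts in Lgr5-T8hi libraries, against 3 and 4 counts in Lgr5+T8- and 36 and 17 counts in Lgr5-T8- libraries. Lgr5+T8- libraries thus held the fewest counts. The interaction was 3.45 ± 0.73 on the log2 scale (edgeR adjusted p = 0.0289), and DESeq2 gave an adjusted p of 0.0612. It was lost without any 1 library other than the batch 2 libraries of Lgr5-T8hi and Lgr5-T8- (0.0739 to 0.181).

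Taken within 1 Lgr5 gate, T8hi against T8- cells gave 7 genes higher and 1 lower in Lgr5+ cells, where 7.27% of all genes tested were higher, 2.17% lower and 9.44% either. It gave 5 higher and 1 lower in Lgr5- cells, where 3.70% were higher, 3.36% lower and 7.06% either. Bmp4 differed by 1.78 ± 0.32 in Lgr5+ cells (log2, edgeR adjusted p = 0.00451) and by 1.12 ± 0.33 in Lgr5- cells (edgeR adjusted p = 0.0709). The call in Lgr5+ cells was lost without Lgr5+T8hi replicate 1 (0.0976) or Lgr5+T8- replicate 2 (0.0507). Gdf10 differed by 1.62 ± 0.26 in Lgr5+ cells (edgeR adjusted p = 0.00186) and by 0.49 ± 0.26 in Lgr5- cells (edgeR adjusted p = 0.355). Id3 differed by 0.55 ± 0.15 in Lgr5+ cells (edgeR adjusted p = 0.0542) and by 1.20 ± 0.16 in Lgr5- cells (edgeR adjusted p = 0.00146). None of these 3 pairs of differences was itself past the threshold for the interaction, with edgeR adjusted p of 0.686 for Bmp4, 0.178 for Gdf10 and 0.228 for Id3.

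Within 1 T8 gate, Lgr5+ against Lgr5- cells gave 1 gene higher and 0 lower in T8hi cells, where 2.29% of all genes tested were higher, 1.05% lower and 3.34% either. It gave 6 higher and 4 lower in T8- cells, where 3.81% were higher, 5.05% lower and 8.86% either. Among the 8 fits that left out 1 library, the T8- call of Bmp7 was lost in 8. Those of Acvr1b and Smad7 were lost in 7, and those of Id1 and Ltbp3 in 5. The Bmp3 call was lost in 2 fits and those of Tgfb1, Ltbp1 and Ltbp2 in 1, while that of Id3 held in all. In T8hi cells DESeq2 and limma-voom also called 0 lower, and Bmp7, Tgfbr3, Acvr1b and Fst were lower at an unadjusted p under 0.05 by edgeR. The gene called higher in T8hi cells was Bmp2, at 0.91 ± 0.15 (log2, edgeR adjusted p = 0.00874). Without 1 library, that call was lost in 3 of the 8 fits (0.0965 to 0.172), namely without either Lgr5+T8hi library or without Lgr5-T8hi replicate 1. In T8- cells, Id3 was 0.90 ± 0.16 higher in Lgr5+ cells (edgeR adjusted p = 0.00616) and Ltbp2 was 0.66 ± 0.11 higher (edgeR adjusted p = 0.00278), while Ltbp1 fell by 0.63 ± 0.11 (edgeR adjusted p = 0.00425). The Ltbp1 call was lost without Lgr5+T8- replicate 1 (0.0533), and the Ltbp2 call without that same library (0.0552).

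Batch was itself a large source of difference. Between batch 2 and batch 1, 2 of the 42 genes were higher and 12 lower. Of all 16526 genes tested, 2649 were higher and 2787 lower, which is 32.9% in either direction. The 14 called members were thus near the share of all genes. Bmp7 was 0.74 ± 0.06 higher in batch 2 on the log2 scale, and Smad7 fell by 0.92 ± 0.06. Since each population had 1 library in each batch, this difference was balanced over the populations.

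Beyond the 42 genes, 79 other genes of the pathway were looked up, covering further ligands, co-receptors, secreted modulators, latency and activation, intracellular regulators and common targets. Of the 64 that passed the filter, 11 were higher and 5 were lower in T8hi cells, where 9.13% of all genes tested were higher and 5.52% lower. In Lgr5+ cells 5 were higher and 3 lower, where 4.23% of all genes tested were higher and 4.86% lower, so that the Lgr5 share of 12.5% lay near the 9.09% of all genes. The 5 with the smallest adjusted p in the Tspan8 comparison were Lrrc32, Chrdl1, Tgfbi, Hey1 and Tsc22d1. Lrrc32 encodes GARP, a membrane anchor for latent TGF-beta, and had 49.0 and 35.6 CPM in Lgr5+T8hi and 31.7 and 23.0 CPM in Lgr5-T8hi libraries, against 13.6 and 7.46 CPM in Lgr5+T8- and 37.3 and 23.6 CPM in Lgr5-T8- libraries. Lgr5+T8- libraries were the lowest and Lgr5+T8hi libraries the highest in both batches. The log2 difference was 0.95 ± 0.08 in T8hi against T8- cells (edgeR adjusted p = 1.48e-05). Chrdl1, a secreted BMP antagonist, had 7.81 and 6.66 CPM in Lgr5+T8hi and 5.85 and 5.54 CPM in Lgr5-T8hi libraries, against 1.76 and 1.12 CPM in Lgr5+T8- and 2.91 and 3.27 CPM in Lgr5-T8- libraries. All T8hi libraries were above all T8- libraries, with a log2 difference of 1.60 ± 0.15 (edgeR adjusted p = 2.77e-05).

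Tgfbi, a matrix protein gene named for its induction by TGF-beta, differed by 0.67 ± 0.10 (log2, edgeR adjusted p = 0.000845). That value averages over Lgr5 gates between which the Tgfbi difference was unlike, with a log2 interaction of 1.39 described further below. Tsc22d1, also known as a TGF-beta-stimulated gene, differed by 0.58 ± 0.09 (edgeR adjusted p = 0.00146). Hey1, a target of Notch and BMP signalling, had 21.5 and 26.8 CPM in Lgr5+T8hi and 23.7 and 26.1 CPM in Lgr5-T8hi libraries, against 20.1 and 21.4 CPM in Lgr5+T8- and 13.7 and 17.0 CPM in Lgr5-T8- libraries. Within each batch both T8hi libraries were above both T8- libraries, with a log2 difference of 0.46 ± 0.08 (edgeR adjusted p = 0.0015). In the Lgr5 comparison the 5 genes with the smallest adjusted p were Tsc22d1, Tgif1, Lrrc32, Thbs1 and Tgif2. Tsc22d1 had 1922 and 1327 CPM in Lgr5+T8hi and 1588 and 925 CPM in Lgr5+T8- libraries, against 1357 and 895 CPM in Lgr5-T8hi and 684 and 609 CPM in Lgr5-T8- libraries. Lgr5+ was above Lgr5- in each batch and T8 gate, and the log2 difference was 0.72 ± 0.09 (edgeR adjusted p = 0.000529). Tgif1 and Tgif2 encode co-repressors of Smad2 and Smad3. Tgif1 had 430.5 and 249.1 CPM in Lgr5+T8hi and 394 and 232 CPM in Lgr5+T8- libraries, against 348 and 214 CPM in Lgr5-T8hi and 258 and 164 CPM in Lgr5-T8- libraries. Tgif2 had 156 and 140.9 CPM in Lgr5+T8hi and 161 and 142 CPM in Lgr5+T8- libraries, against 127 and 126 CPM in Lgr5-T8hi and 105 and 113 CPM in Lgr5-T8- libraries. Both were higher in Lgr5+ cells in each batch and T8 gate, by 0.41 ± 0.07 and 0.35 ± 0.07 on the log2 scale (edgeR adjusted p = 0.00178 and 0.00715). The Tgif2 call was lost without Lgr5+T8hi replicate 1 (0.0621) or Lgr5-T8hi replicate 1 (0.0796).

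For Lrrc32 the Lgr5 difference had opposite signs in the T8 gates. Within T8hi cells it was 0.63 ± 0.11 higher on the log2 scale in Lgr5+ cells (edgeR adjusted p = 0.0107), a call lost without either Lgr5+T8hi library or Lgr5-T8hi replicate 1 (0.101 to 0.244). Within T8- cells it fell by 1.54 ± 0.12 in Lgr5+ cells (edgeR adjusted p = 1.66e-05). The average over both gates was -0.45 ± 0.08 (edgeR adjusted p = 0.00409), and this call was lost without Lgr5+T8hi replicate 1 (0.0571). Thbs1, a matrix protein gene known for activating latent TGF-beta, had 4333 and 3143 CPM in Lgr5+T8hi and 5147 and 4274 CPM in Lgr5+T8- libraries, against 6103 and 4111 CPM in Lgr5-T8hi and 6865 and 5377 CPM in Lgr5-T8- libraries. In each batch and T8 gate Lgr5+ was below Lgr5-. It fell by 0.41 ± 0.07 on the log2 scale (edgeR adjusted p = 0.00476), and the call was lost without Lgr5-T8hi replicate 1 (0.0647).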

How the data were processed

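Single-end RNA-seq of total RNA from FACS-sorted cells was given as the authors' deposited raw counts of reads per gene, not normalized, for 27164 Entrez genes. Per the submitters' processing notes, the software was featureCounts, CASAVA 1.8.2, limma 3.24.14 and edgeR 3.10.2, and the genome was mm10 (GRCm38), with no roles named. The aligner and whether counting used the strand are not given in the sources used here, so genes that overlap others (21 of the 42, of which 5 overlap a protein-coding gene) are uncertain. RefSeq (GRCm38.p6) gave symbols, coordinates and promoter windows, and matched 25260 identifiers. The unmatched ones held 2.56 to 2.86% of a library's counts. A floor of 3 counts was 0.0799 to 0.120 CPM by library, which covers counting error only.

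Counts of all 8 libraries were fitted with edgeR's quasi-likelihood test (edgeR 4.0.16, R 4.3.3), TMM normalization, filterByExpr (minimum count 10) and a model of population plus batch with 3 residual degrees of freedom. Of the genes, 16526 were tested and 10638 were not. Tests were two-sided, with Benjamini-Hochberg adjustment over all genes tested, a threshold of 0.05 and standard errors taken as the log2 fold change over the root of F. CPM used TMM-adjusted library sizes, and within-batch differences used log2(CPM + 0.5). Replicates differed by more than sampling noise (chi-square per degree of freedom 36.0 to 57.3). The batch in the labels equals the replicate number, and libraries of the same number deviated together (r across genes 0.415 to 0.55 over 6 pairs of populations), so batch was kept in the model.

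The 42 genes and all lists were chosen with earlier results of these data known. Values in every library are given for members past the threshold in the Tspan8 comparison, the Lgr5 comparison or the interaction whose mean reached 1 CPM, and for the 5 other pathway genes with the smallest adjusted p in the Tspan8 comparison and the 5 in the Lgr5 comparison. Smad6, Smad7, Fst and the counts of Bmp3 were added after their values were seen. Alternatives were DESeq2 1.42.0, limma-voom (limma 3.58.1), a model without batch, RLE normalization, testing unfiltered genes, requiring 1 CPM in 4 libraries, and leaving out each library.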

Additional observations from a re-analysis of the deposited data

Results flagged for a closer look

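For 6 genes the T8hi minus T8- difference itself differed between Lgr5+ and Lgr5- cells, by the interaction term of edgeR's fit at an adjusted p under 0.05. Among the 42 genes these were Ltbp1, with a log2 interaction of 0.94, and Bmp3, with 3.45 on few counts. Among the other pathway genes, the interaction was 2.17 ± 0.16 for Lrrc32 (edgeR adjusted p = 9.49e-05), where T8hi exceeded T8- by 2.03 ± 0.12 in Lgr5+ cells and differed by -0.14 ± 0.11 in Lgr5- cells. It was 1.39 ± 0.20 for Tgfbi (edgeR adjusted p = 0.00455), which had 16.8 and 14.8 CPM in Lgr5+T8hi and 11.1 and 9.06 CPM in Lgr5-T8hi libraries, against 7.34 and 5.02 CPM in Lgr5+T8- and 10.5 and 9.96 CPM in Lgr5-T8- libraries. For Tll1, which encodes a tolloid-like protease known to cleave chordin, it was 2.20 ± 0.38 (edgeR adjusted p = 0.0109), with 4.07 and 7.11 CPM in Lgr5+T8hi and 1.37 and 3.17 CPM in Lgr5-T8hi libraries, against 1.29 and 1.36 CPM in Lgr5+T8- and 2.15 and 2.83 CPM in Lgr5-T8- libraries. This call was lost without the batch 1 (0.0657) or the batch 2 library (0.0959) of Lgr5+T8hi, or without Lgr5+T8- replicate 2 (0.0648). For Chrdl1 the interaction was 1.43 ± 0.30 (edgeR adjusted p = 0.0304), and it was lost without any 1 library of Lgr5+T8hi or Lgr5-T8hi, or the batch 2 library of Lgr5+T8- or of Lgr5-T8- (0.0525 to 0.170). Ltbp1, Lrrc32, Tgfbi and Chrdl1 had their lowest values in Lgr5+T8- libraries in both batches, where the pericyte and fibroblast marker sums were also lowest, and their part in these results was not tested. Tll1 was named after its values were seen.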

How the results depend on the processing

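Of 196 recomputed counts of called members, 123 stayed within 1.5 times the reported count and 73 moved, and 0 gene values reversed a called direction. The shares of all genes called in the fits behind these counts are not given here. A moved count therefore cannot be read as a change particular to the members. The replicate block mattered most. With no replicate block, edgeR called 4 members higher and 0 lower in T8hi cells, 0 and 0 in Lgr5+ cells, and 0 in the interaction. Without it T8hi against T8- gave 3 higher and 0 lower in Lgr5+ cells and 0 and 0 in Lgr5- cells, and Lgr5+ against Lgr5- gave 0 higher in T8hi and 0 and 0 in T8- cells. DESeq2 called 5 members lower in the Lgr5 comparison, 1 higher in the interaction, 0 lower and 2 lower for T8 within Lgr5+ and Lgr5- cells, and 2 higher for Lgr5 within T8hi cells. The filter of 1 CPM, which left out members, gave 1 in the interaction and 0 lower for T8 within Lgr5+ cells, where RLE normalization also gave 0. The Tspan8 decrease of Tgfb2 within Lgr5+ cells, the 1 concerned, had edgeR adjusted p of 0.0438 in the model with batch, 0.0523 with RLE and 0.0661 with the filter, and the cause was not tested.

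Leaving out each library gave 9 to 12 higher and 1 to 4 lower for T8, and 3 to 11 higher and 0 to 5 lower for Lgr5. For the interaction it gave 0 to 2 higher and 0 to 2 lower. For T8 within Lgr5+ cells it gave 4 to 10 and 0 to 3, and within Lgr5- cells 2 to 7 and 0 to 3. For Lgr5 within T8hi cells it gave 0 to 4 and 0 to 1, and within T8- cells 1 to 8 and 0 to 4. A population left with 1 library was assumed to vary like the others. Depth limits Bmp3, Bmp5, Bmpr1b and Grem1, all below 1 CPM on average.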
